A study of Mus musculus with 6 samples.

Results

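The testis members of the ADAM family were followed in whole testes of 3 Nxf2 knockout (KO) mouse samples and 3 wild-type (WT) mouse samples, all taken at postnatal day 21. The 10 genes are Adam2, Adam3, Adam4, Adam5, Adam7, Adam18, Adam24, Adam26a, Adam30 and Adam32, and a probe set was taken when the platform annotation gave it 1 of these symbols and no other. This gave 1 probe set for each of 9 genes, of 18193 genes with such a probe set. Adam30 had none and is not analysed here. Nxf2 is an X-linked germ cell relative of the mRNA export receptor gene Nxf1. The labels give neither the allele, the strain nor the number of animals behind a sample, so p-values measure only the spread between these samples. RNA was hybridised to 1-colour Affymetrix arrays with 1 array per sample, and the values are signal intensities on a linear scale.

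ADAM proteins are membrane proteins with a disintegrin and a metalloprotease domain. Several are made in male germ cells and cut during sperm maturation, and in mice loss of ADAM2 (fertilin beta) or ADAM3 (cyritestin) leaves sperm that fail to pass from uterus to oviduct and bind the egg coat poorly. ADAM3 reaches the sperm surface only when ADAM2, ADAM1A and a set of chaperones of the endoplasmic reticulum are present. At day 21 the first wave of spermatogenesis has reached meiosis and the first round spermatids.

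The single Nxf2 probe set had signals of 116.0, 106.2 and 130.8 in KO, against 374.3, 340.4 and 385.9 in WT. Its log2 fold change was -1.59 ± 0.0999 (SE; limma, adjusted p = 0.000488), and no source used here says whether its probes lie in the deleted part. The median signal of an array was 37.1 to 40.9, and the number of arrays limits the precision. Spearman's rho, across tested probe sets and so not over independent replicates, was 0.985 to 0.992 within KO, 0.980 to 0.991 within WT and 0.965 to 0.983 across genotypes. The tissue label was checked against 16 pachytene spermatocyte genes, whose lowest signal on any array was 243. Probe sets were tested when their mean signal over all 6 arrays reached 20.5. Fold changes are KO minus WT on the log2(signal + 7) scale, which understates the change of dim probe sets, and a probe set was called when its p, adjusted for all 27022 that were tested, was under 0.05.

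Most testis ADAM genes were lower in KO. Of the 9 probe sets, 7 were tested, 6 of these fell and none rose (none rose at an unadjusted p under 0.05 either). Over all tested probe sets 5.23% were called lower, 2.26% higher and 7.49% in either direction in KO. Adam26a and Adam7 reached the limit on dim probe sets only through their WT arrays, so their place among the tested probe sets already implies a difference. The other 5, which were above that limit in both genotypes, were Adam2, Adam3, Adam5, Adam18 and Adam32, and 4 of them fell. In 8 of the 9 probe sets every KO array lay below every WT array, a separation found in 11.0% of all 45037 probe sets. The median log2 fold change was -0.32 over the 7 tested members and 0.037 over all tested probe sets. Fewer germ cells of a stage and less RNA per cell cannot be told apart in whole testes.

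**Figure D1:**
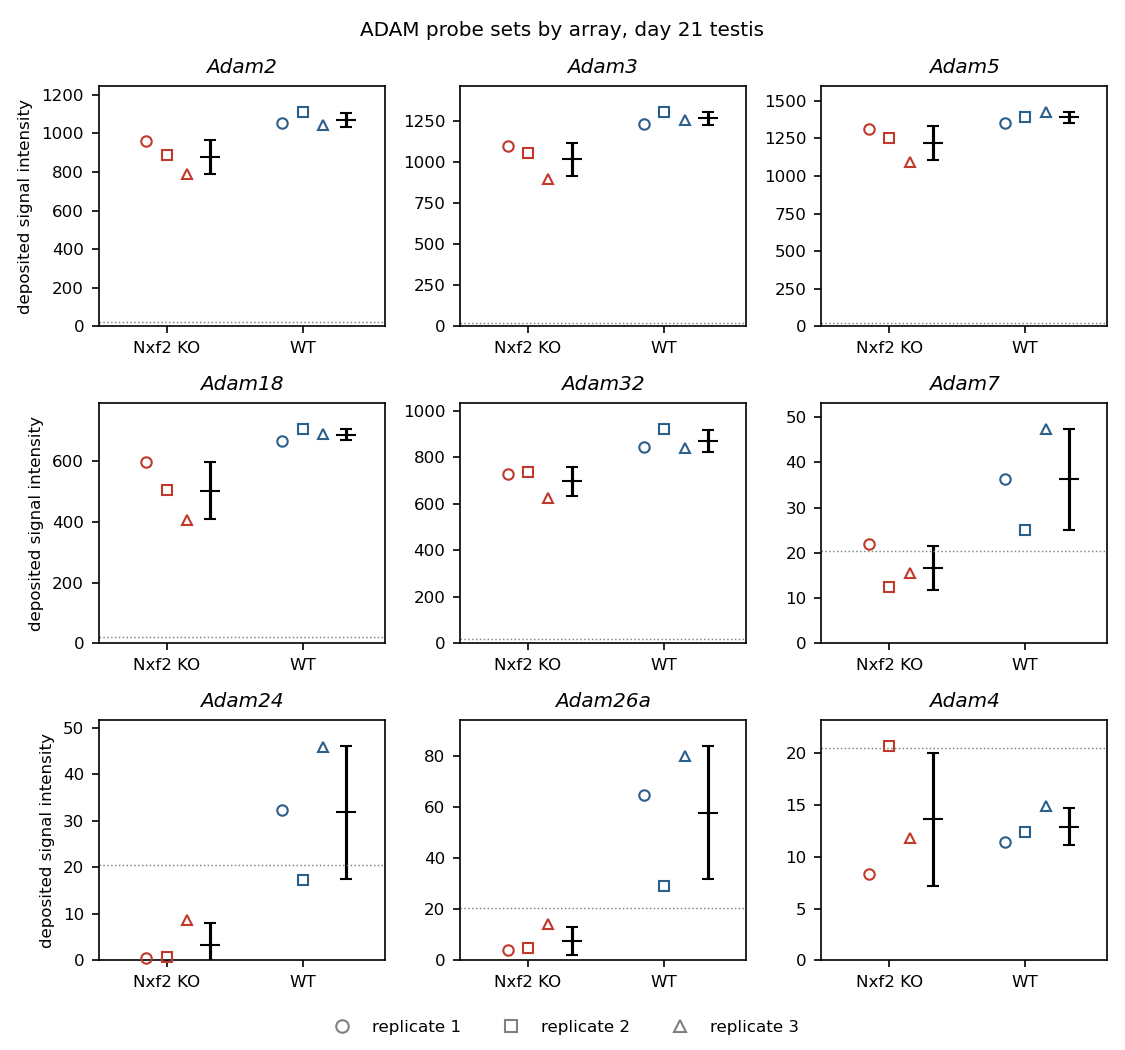
Deposited signal intensity (vertical axis, linear, from 0, with its own range for each gene) of the 9 ADAM probe sets in Nxf2 KO (left, red) and WT (right, blue) testes at day 21. Open symbols are single arrays by replicate number, the black bar is the mean ± SD (n = 3 each), and the dotted line is the dim limit of 20.5. The genotypes overlap for Adam4, and KO lies wholly below WT for the other 8.

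Adam2 encodes fertilin beta, which pairs with an ADAM1 protein to form the sperm surface heterodimer fertilin. Its signals were 960.0, 889.9 and 787.3 in KO, against 1056.2, 1112.3 and 1043.8 in WT. The groups did not overlap, with KO replicate 3 lowest and WT replicate 2 highest. The means were 879 ± 86.9 in KO and 1071 ± 36.5 in WT (SD, n = 3 each), and the log2 fold change was -0.29 ± 0.0691 (SE, 95% interval -0.44 to -0.13; limma, adjusted p = 0.0358).

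Adam3 encodes cyritestin, needed by mouse sperm to reach the oviduct. It had signals of 1093.3, 1051.9 and 898.5 in KO, against 1230.7, 1304.1 and 1254.8 in WT. KO replicate 3 was again the lowest array and WT replicate 2 the highest, with no overlap. Adam3 averaged 1015 ± 103 in KO and 1263 ± 37.4 in WT (SD, n = 3 each), and its log2 fold change was -0.32 ± 0.0686 (SE, 95% interval -0.47 to -0.17; limma, adjusted p = 0.0248).

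Adam18, Adam5 and Adam32 encode further sperm membrane proteins of the family, for which no catalytic activity is known, and lie beside Adam3 on chromosome 8 in the order Adam18, Adam3, Adam5, Adam32 with no other protein-coding gene between them (RefSeq, GRCm38.p6). Adam18 showed the deepest fall of the 4 neighbours: its signals were 596.6, 505.8 and 407.2 in KO, against 667.0, 705.0 and 690.4 in WT. The KO arrays were widely spread for this gene and the WT arrays close together, with SDs of 94.7 in KO and 19.2 in WT around means of 503 and 687 (n = 3 each). The log2 fold change of Adam18 was -0.46 ± 0.113 (SE, 95% interval -0.71 to -0.21; limma, adjusted p = 0.0376).

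Adam32 had signals of 726.9, 738.9 and 624.6 in KO, against 846.0, 922.9 and 840.0 in WT. All KO arrays lay below all WT arrays, and the log2 fold change was -0.32 ± 0.0720 (SE, 95% interval -0.48 to -0.16; limma, adjusted p = 0.0292). Adam5 had signals of 1313.5, 1253.8 and 1090.3 in KO, against 1352.3, 1394.8 and 1425.5 in WT. The genotypes were also separate for Adam5, but KO replicate 1 lay close to WT replicate 1, and the gene did not pass the test: its log2 fold change was -0.19 ± 0.0640 (SE, 95% interval -0.34 to -0.051; limma, adjusted p = 0.0897). Across these 5 genes the KO mean was 73.2% to 87.7% of the WT mean.

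Adam26a and Adam24 encode testases, testis ADAM proteins that, unlike those above, carry the metalloprotease active site motif. Adam26a had signals of 4.16, 4.87 and 14.1 in KO, against 64.8, 29.0 and 80.1 in WT. Every KO array lay under the dim limit of 20.5 and every WT array above it. Means were 7.72 ± 5.57 in KO and 58.0 ± 26.2 in WT (SD, n = 3 each), and the log2 fold change was -2.11 ± 0.333 (SE, 95% interval -2.85 to -1.37; limma, adjusted p = 0.00865). With a pseudocount of 1 it was -2.82 and with a pseudocount of 39, the median of all values, -1.02. Whether its probes also bind transcripts of the related gene next to it, Adam26b, was not tested.

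Adam24 had signals of 0.546, 0.695 and 8.67 in KO, against 32.4, 17.2 and 45.8 in WT. Its mean over all arrays was below the limit, so it was not among the tested probe sets. When the dim filter was dropped, its log2 fold change was -1.93 ± 0.352 (SE; limma, adjusted p = 0.0403), where 1.81% of 45037 probe sets were called lower. For both testases WT replicate 2 was the lowest WT array and KO replicate 3 the highest KO array.

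Adam7, made mainly in the epididymis in adult mice and passed on to sperm there, had signals of 22.0, 12.5 and 15.5 in KO, against 36.2, 25.1 and 47.4 in WT. The groups did not overlap, although KO replicate 1 and WT replicate 2 were close. The log2 fold change of Adam7 was -0.86 ± 0.218 (SE, 95% interval -1.34 to -0.37; limma, adjusted p = 0.0423), -1.07 with a pseudocount of 1 and -0.43 with one of 39. Of 21 epididymis marker genes 12 had a probe set, 4 were tested and 2 fell. With 1 probe set per gene, 7.37% of all tested genes were called lower and 2.98% higher. The 2 that fell were Aqp9, a water and glycerol channel gene, with a log2 fold change of -0.32 (limma, adjusted p = 0.0448), and Rnase10, an epididymal secretory gene, with -0.44 (limma, adjusted p = 0.0467). Each lost its call under 8 of 15 alternatives. A second Aqp9 probe set had -0.50 and did not pass (limma, adjusted p = 0.0733). Ces5a had the largest change of the 4 but did not pass: its tested probe sets had -1.16 and -0.87 (limma, adjusted p = 0.126 and 0.107). Its brightest probe set had 205.7, 45.4 and 132.1 in KO, against 317.2, 151.3 and 333.4 in WT. The genotypes overlapped, and the arrays ranked as for Adam7 within each genotype. The summed signal of the 12 epididymis genes was 2394.7 to 2756.4 in KO, against 2730.1 to 2846.6 in WT. Most of that sum came from Cst12, a cystatin gene, at 1715.9 to 1840.9 in KO and 1657.5 to 1776.6 in WT. Gpx5, a defining gene of the epididymal head, had 0.342 or less in KO and 0.692 or less in WT, and Lcn5, a retinoid-binding lipocalin of the epididymis, had 4.70 to 6.73 in KO, against 23.4 to 28.9 in WT. Of the other untested epididymis genes Cst11, Defb21, Lcn8 and Lcn9 had a higher KO mean and Crisp4 and Spint4 a lower one. The genotypes overlapped in all of these and in Gpx5. Whether adhering epididymis had a part in the Adam7 values was not tested.

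Adam4, whose testis protein has no settled role, had signals of 8.29, 20.7 and 11.8 in KO, against 11.4, 12.4 and 14.9 in WT. The groups overlapped, 5 of the 6 arrays were under the dim limit, and the gene was not tested. With no dim filter its log2 fold change was 0.011 ± 0.220 (SE; limma, adjusted p = 0.987), which at these signals does not show that Adam4 was unchanged.

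The order of the arrays differed between members. In all 5 of Adam2, Adam3, Adam5, Adam18 and Adam32 the lowest array was KO replicate 3, and in 4 of them the highest was WT replicate 2. Measured from the WT mean on the log2 scale, Adam18 lay at -0.20, -0.44 and -0.75 in KO replicates 1 to 3, and Adam2 at -0.16, -0.26 and -0.44. Adam26a instead lay at -2.45, -2.36 and -1.53 in KO replicates 1 to 3, against 0.24, -0.76 and 0.52 in WT replicates 1 to 3. Adam24 had -2.29, -2.26 and -1.24 in KO, against 0.092, -0.61 and 0.52 in WT.

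The median of 16 pachytene spermatocyte genes lay at 0.0073, -0.022 and -0.21 in KO replicates 1 to 3, against -0.029, 0.05 and -0.027 in WT replicates 1 to 3, so that KO replicate 3 was lowest and WT replicate 2 highest. The median of 23 round spermatid genes lay at -0.87, -0.80 and -0.69 in KO, against 0.054, -0.31 and 0.19 in WT, with WT replicate 2 the lowest WT array and KO replicate 3 the highest KO array. The summed signal was 15453.9 to 17749.2 in KO and 17719.6 to 18588.6 in WT for the pachytene list, and 7712.9 to 8361.2 in KO and 10463.9 to 10971.6 in WT for the round spermatid list. KO replicate 3 was the lowest KO array in both sums, so the order of the round spermatid arrays depended on whether the median or the sum was taken. Of the pachytene genes 4 of 16 fell and none rose, where 7.37% of all tested genes were called lower and 2.98% higher. Their median log2 fold change was -0.07. All 16 were lower on the deposited scaling and after median centring, and 14 were lower after quantile normalization. Those that fell included Adad1, with a log2 fold change of -0.36, and Aurkc, the germ cell Aurora kinase, with -0.48. Of the round spermatid genes 19 of 22 tested fell and none rose (median -0.86), among them Acrv1, an acrosomal protein gene, with -2.36 and Actl7b, an actin-like gene of spermatids, with -0.84. Of these 19 genes 6 had a KO mean below the dim limit and were tested only through their WT signal, so that they had to be lower in KO. The part of these stages in the ADAM values was not tested.

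**Figure D2:**
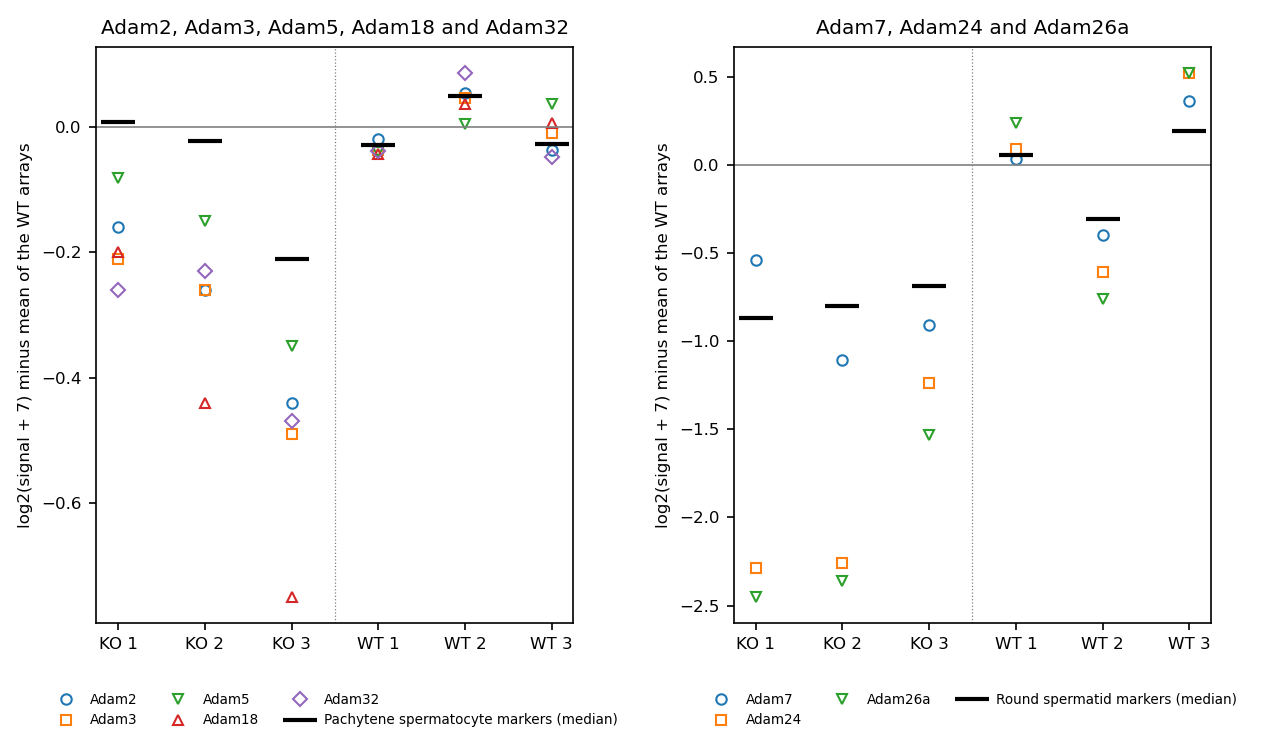
Log2(signal + 7) of single ADAM genes minus their mean over the WT arrays (vertical axis) on each array (horizontal axis, KO replicates left, WT replicates right). Black bars are the median of the pachytene spermatocyte genes in the left panel and of the round spermatid genes in the right panel. KO replicate 3 is lowest for all 5 genes on the left, whereas on the right it is the highest KO array for Adam24 and Adam26a.

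Single arrays bore on the number of falls among the members. The number of members called lower stayed at 6 when KO replicate 1 was left out. It was 3 on leaving out KO replicate 2, and 2 on leaving out KO replicate 3. It was 2 on leaving out WT replicate 2 and 1 on leaving out WT replicate 3. Without WT replicate 1 no member was called, although all 7 tested members were lower at an unadjusted p under 0.05 (limma, lowest adjusted p = 0.0574). Lower calls over all 27022 tested probe sets also dropped, from 1414 with all arrays. They numbered 1146, 850 and 897 without KO replicates 1, 2 and 3 in that order. They numbered 143, 973 and 775 without WT replicates 1, 2 and 3. Every tested member kept a negative fold change whichever array was left out. Without KO replicate 3 the log2 fold change of Adam18 was -0.32 (limma, adjusted p = 0.0506), of Adam2 -0.21 (adjusted p = 0.0667) and of Adam32 -0.24 (adjusted p = 0.0513). In the same fit Adam3 had -0.23 (limma, adjusted p = 0.0278) and Adam5 -0.12 (adjusted p = 0.191).

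The rest of the family was set beside the members. Of 12 other testis ADAM genes 7 had a probe set, and Adam1b was the only one tested. Adam1b encodes the ADAM1 form found in fertilin on mouse sperm. Its brightest probe set had signals of 171.5, 174.2 and 146.1 in KO, against 257.1, 285.2 and 288.8 in WT. The groups did not overlap, and the log2 fold change was -0.74 ± 0.0977 (SE; limma, adjusted p = 0.00499). A second Adam1b probe set fell by 0.79 on the log2 scale (limma, adjusted p = 0.0138), and the other was too dim to test. The RNA of both fertilin partners was thus lower in KO. Within each array Adam1b relative to Adam2 was lower in KO by 0.45 on the log2 scale (exact permutation test, two-sided, p = 0.100, the smallest that 3 against 3 arrays allow). This pair was chosen after the values were seen, so the difference is no further support.

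The other 6 testis genes were dim. Adam34, another testis ADAM gene, had signals of 0.385, 0.345 and 0.258 in KO, against 16.8, 1.91 and 14.6 in WT, and Adam25 had 1.48, 1.91 and 2.26 in KO, against 25.9, 4.90 and 24.8 in WT. WT replicate 2 stood well below the other WT arrays in both, as it did for Adam26a and Adam24. Adam21 and Adam1a also had every KO array below every WT array, whereas Adam6a and Adam6b overlapped.

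None of the broadly expressed ADAM genes was called lower. All 13 had a probe set, and 10 were tested by their brightest one. Of these 2 rose and none fell (none was lower at an unadjusted p under 0.05 either), where 2.98% of all tested genes were called higher and 7.37% lower. All 10 had a positive log2 fold change (median 0.18), also after quantile normalization or median centring. A dimmer tested probe set of Adam10 had -0.15 (limma, adjusted p = 0.656). Adam9, a widely expressed metalloprotease, lies next to Adam32 on chromosome 8. Its signals were 657.6, 703.6 and 797.2 in KO, against 555.0, 566.0 and 618.2 in WT, with KO above WT throughout. The log2 fold change of Adam9 was 0.31 ± 0.0772 (SE; limma, adjusted p = 0.0414), a call lost under 8 of 15 alternatives, among them median centring (limma, adjusted p = 0.0833). Adam12, a metalloprotease of mesenchymal cells, had 105.4, 116.0 and 160.8 in KO, against 76.9, 67.6 and 69.3 in WT (log2 fold change 0.76; limma, adjusted p = 0.0199), while its other probe set had 0.54 (limma, adjusted p = 0.0939). Adam10 and Adam17, the main shedding proteases, had log2 fold changes of 0.14 and 0.11 and did not pass (limma, adjusted p = 0.0989 and 0.290).

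ADAM genes were also set against each other within arrays, for 3 pairs chosen after the values were seen. Adam26a relative to Adam3 was lower in KO by 1.79 on the log2 scale, and Adam32 relative to its neighbour Adam9 by 0.62. Adam26a had reached the dim limit only through its WT arrays, and Adam32 had been called lower and Adam9 higher. For the pair given above, Adam1b had already shown a deeper fall than Adam2. The direction of these differences was thus set by the choice of pairs, and they are no further support. In each of the 3 pairs the KO arrays did not overlap the WT arrays, and the exact permutation p was 0.100 for each and 0.100 after Benjamini-Hochberg adjustment over the 3 pairs, which the design cannot go below.

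**Figure D3:**
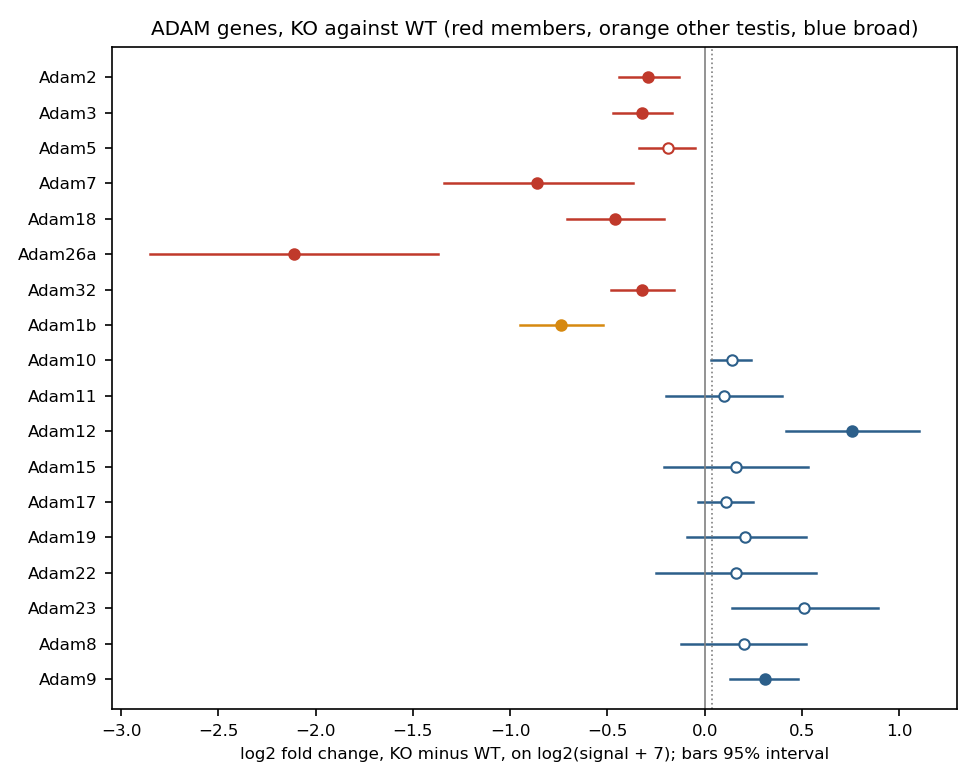
Log2 fold change, KO minus WT, of the tested ADAM genes (points, 1 probe set per gene) with 95% limma intervals (bars). Filled points passed at an adjusted p under 0.05, the dotted line is the median of all tested probe sets, 0.037, and colours mark the members (red), the other testis gene Adam1b (orange) and the broadly expressed genes (blue). The 7 members and Adam1b lie left of 0 and all 10 broadly expressed genes right of it.

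Of 17 genes listed as ADAM3 maturation factors 16 had a probe set and 15 were tested by their brightest one: 3 fell, none rose and 12 did not pass, with a median log2 fold change of -0.081 (6 were lower and 1 was higher at an unadjusted p under 0.05), where 7.37% of all tested genes were called lower. Hspa2 and Clgn of this list are also among the pachytene genes. Pdilt, a testis protein disulfide isomerase homologue that works on ADAM3 in the endoplasmic reticulum, had signals of 11.2, 15.9 and 27.7 in KO, against 70.2, 40.9 and 99.7 in WT. KO replicate 3 was the highest KO array and WT replicate 2 the lowest WT array, as for the testases. The log2 fold change of Pdilt was -1.59 ± 0.299 (SE; limma, adjusted p = 0.0159), and its KO mean was below the dim limit. Its second probe set had a log2 fold change of -1.48 and did not pass (limma, adjusted p = 0.0681).

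Cmtm2b, one of a pair of genes needed for ADAM3 in mouse sperm, had signals of 1060.0, 1094.3 and 978.0 in KO, against 1184.5, 1280.0 and 1164.5 in WT (log2 fold change -0.21; limma, adjusted p = 0.0492). Cmtm2b lost its call under 10 of 15 alternatives. Its partner Cmtm2a had -0.17 and did not pass (limma, adjusted p = 0.111). Rnase10, given above among the epididymis genes, also fell. The probe sets of Clgn, the chaperone calmegin that folds the fertilin pair, disagreed: the brightest had a log2 fold change of -0.081 (limma, adjusted p = 0.443), and the other 2 fell by 0.20 and 0.28 on the log2 scale (limma, adjusted p = 0.0408 and 0.0128).

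The remaining factors did not pass. Calr3, the testis calreticulin, had a log2 fold change of 0.17 with signals of at most 45.4, Hspa2, a germ cell heat shock protein gene, one of -0.14, and Pcsk4, a proprotein convertase of spermatids, one of -0.38 (limma, adjusted p = 0.443, 0.105 and 0.0973 in that order). Tex101, of the germ cell surface, had -0.039, Ly6k, a surface protein gene of the same pathway, -0.10, and Tpst2, a tyrosine sulfotransferase gene, 0.30 (limma, adjusted p = 0.630, 0.320 and 0.114 in that order). Calr, Canx, Ace and Pgap1 had log2 fold changes of -0.038, -0.063, 0.24 and 0.16. Prss37 was too dim to test. The number of factors called was 1 on leaving out any of KO replicates 1, 2 and 3 or WT replicates 2 and 3, and 0 on leaving out WT replicate 1, where 6 genes were lower at an unadjusted p under 0.05 (limma). Lower calls over all tested probe sets also dropped in each of these fits, as given above.

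**Figure D4:**
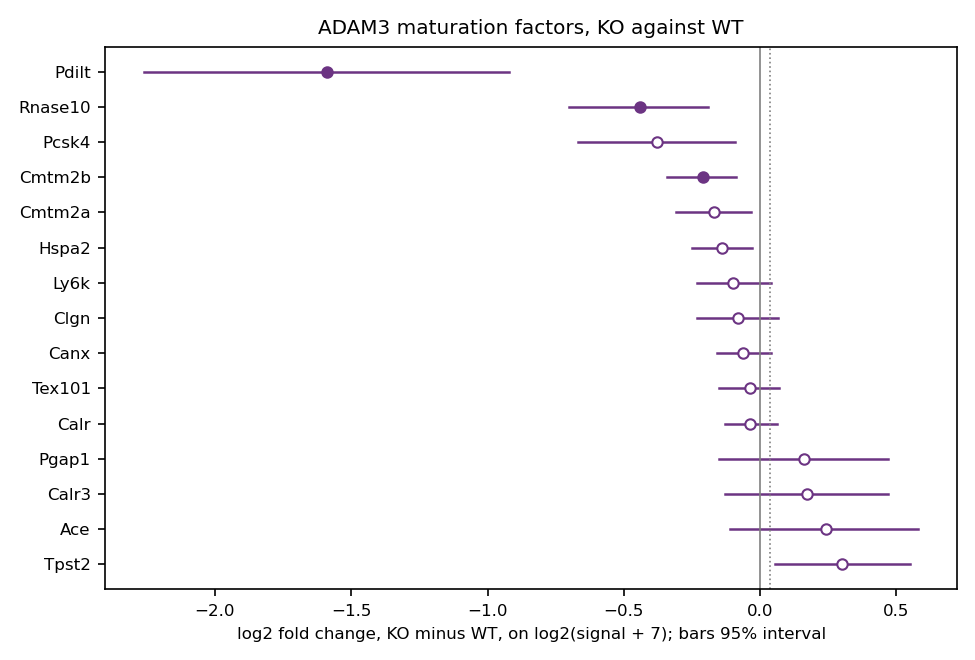
Log2 fold change, KO minus WT, of the 15 tested ADAM3 maturation factors (points, brightest probe set of each gene) with 95% limma intervals (bars), sorted by size. Filled points passed at an adjusted p under 0.05. Pdilt stands apart at -1.59, and 11 of the 15 lie left of 0.

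In the wider list of gamete binding and fusion genes 9 had a probe set, 5 were tested, 4 fell and none rose, where 7.37% of all tested genes were called lower. Of the 4, Zp3r and Llcfc1 had a KO mean below the dim limit and were tested only through WT. Zp3r, an acrosomal matrix gene, had signals of 13.5, 12.4 and 26.5 in KO, against 94.8, 47.3 and 100.0 in WT (log2 fold change -1.82; limma, adjusted p = 0.00771), and Acr, the proacrosin gene, had 443.3, 423.7 and 381.2 in KO, against 541.9, 555.5 and 513.6 in WT (log2 fold change -0.36; limma, adjusted p = 0.0192). For Zp3r KO replicate 3 was the highest KO array and WT replicate 2 the lowest WT array, as for the testases. For Acr KO replicate 3 was the lowest array and WT replicate 2 the highest, as for Adam3. The order of the remaining arrays differed. Izumo1 and Llcfc1, both needed for fusion with the egg, had log2 fold changes of -0.98 and -3.02.

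Some markers of other cells rose, where 2.98% of all tested genes were called higher. Of 11 undifferentiated spermatogonia genes 5 rose, 6 did not pass and none fell (median 0.27, with Id4 and Gfra1 both at -0.15). Those that rose were Zbtb16, Lin28a, Sall4, Uchl1 and Ret, but a second Sall4 probe set had 0.083 and did not pass (limma, adjusted p = 0.752). The summed signal of all 11 genes was 4876.4 to 5058.7 in KO and 4140.0 to 4250.4 in WT. Of 12 tested Sertoli cell genes 4 rose (Drd4, Wt1, Shbg and Inha) and none fell (median 0.24), with a sum over the 13 genes on the array of 8262.5 to 8766.3 in KO and 7394.4 to 7644.5 in WT, and of 7 Leydig cell genes 2 rose (Star and Scarb1) and none fell (median 0.32), with 3295.3 to 4648.0 in KO and 2764.8 to 3052.2 in WT. A second Drd4 probe set had 0.67 and did not pass (limma, adjusted p = 0.0984). Further Star probe sets had 0.58 and 0.88 and did not pass either (limma, adjusted p = 0.165 and 0.200). Whether the make-up of the testis had a part in the ADAM falls was not tested.

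The genes most like Adam2 and Adam3 over the 6 arrays were found among 12165 genes by the root mean square difference of centred log2 values, a description that the genotype difference itself enters. Nearest to Adam2 were Tubd1, encoding delta tubulin, at 0.0163, Smco2 at 0.0174 and Lrrc27 at 0.0205. Nearest to Adam3 were Ift57, of intraflagellar transport, at 0.0203, Pebp4 at 0.0203 and Pfkp, a phosphofructokinase gene, at 0.0221. The log2 fold changes of these 6 genes lay between -0.33 and -0.28.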

How the data were processed

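The authors deposited linear signal intensities of 45101 probe sets on 6 arrays. MAS5 is named, without a version, in the submitters' processing notes. After trimming 2% at each end, all 6 arrays had a mean of 150.0, as from scaling by 1 factor per array. Scanner files and detection calls were not used here. No control probe set (64) was used. Of the others 34945 have 1 symbol, 34741 of them (99.4%) updated through Entrez identifiers with the RefSeq table of GRCm38.p6, which also gave chromosomes and gene order. Values entered as log2(signal + 7), the added 7 being their 25th percentile, and probe sets at or above the 40th percentile of means (20.5) were fitted with limma 3.58.1 in R 4.3.3 (eBayes with an intensity trend, two-sided, Benjamini-Hochberg). The fit was tested on simulated data. A gene of a list is represented by its brightest probe set.

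Members and lists were chosen with earlier results of these data known, and calls within them are not independent support. All members were named; from other lists, up to 6 genes that passed by lowest p, or the 2 of lowest p where none did; the ADAM3 factors and other testis ADAM genes could all be named. Other genes were named after their values were seen: Adam10, Adam17, Ces5a, Cst12, Gpx5, Lcn5, the other untested epididymis genes and the neighbours on chromosome 8. Alternatives were quantile normalization, median centring, pseudocounts of 1 and 39, no filter and the 60th percentile, no trend, arrays weighted by quality, a replicate block, the mean of a gene's probe sets, and each array left out.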

Additional observations from a re-analysis of the deposited data

How the results depend on the processing

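All 7 tested members kept a negative fold change under every alternative in which they were tested. Their calls were less stable: Adam2 lost its call under 8 of 15 alternatives (adjusted p 0.00373 to 0.120 over the alternatives), Adam18 under 7 of 15, Adam32 under 6 of 15, Adam3 under 5 of 15, Adam7 under 6 of 14 and Adam26a under 1 of 14, and Adam5 passed under none. Median centring ended the call of Adam2 (adjusted p = 0.0598). With no dim filter 2 members were called of 9 and 1 ADAM3 factor, of 1005 probe sets in all; without the intensity trend 1 member, no ADAM3 factor (4 lower at an unadjusted p under 0.05, limma) and 1 other ADAM gene, of 743. Array weights gave 5 ADAM3 factors, 5 other ADAM genes and 7217 probe sets. Leaving out single arrays gave 0 to 6 members, 0 to 1 ADAM3 factors, 1 to 3 other ADAM genes and 159 to 1534 probe sets, against 2024 with all arrays. The split of all calls was 1414 lower and 610 higher, 1382 and 247 after median centring, 3446 and 3771 with array weights, 817 and 188 with no dim filter, and 569 and 174 without the trend. The cause of these shifts was not tested, except that fewer arrays enter the fits without one. The replicate numbers were checked for pairing: deviations of same-numbered KO and WT arrays correlated at 0.08, 0.46 and 0.27. Those of other pairs correlated at -0.33 to 0.11. Each KO array correlated best with the WT array of its own number, whereas WT replicate 1 correlated best with KO replicate 3 (0.11). The labels give only a number, and whether same-numbered arrays were handled together was not tested. With the replicate number as a block 4503 probe sets were called (2330 lower, 2173 higher), and 6 members, as without it. With a pseudocount of 39 the log2 fold changes of Adam7 (-0.43), Adam26a (-1.02), Llcfc1 (-1.60), Acrv1 (-1.50), Zp3r (-1.06), Pdilt (-0.91) and Izumo1 (-0.57) were smaller by over 1.5 times. Of the uncalled genes named beside the members, Tex101 changed sign without WT replicate 2 (0.005, with -0.081 the lowest value on leaving out 1 array), and so did Tcim, between -0.17 and 0.13 on leaving out 1 array.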

Other observations

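Genes around the run Adam18, Adam3, Adam5, Adam32 on chromosome 8 were looked at by position. Of the 4 protein-coding genes before Adam18 in the RefSeq order, Tcim was tested and had a log2 fold change of -0.05 (limma, adjusted p = 0.876), and Zmat4, Ido2 and Ido1 were too dim to test. Past Adam32 and Adam9, Tm2d2 had signals of 601.3, 584.0 and 623.8 in KO, against 692.9, 661.1 and 694.8 in WT, with a log2 fold change of -0.18 that did not pass (limma, adjusted p = 0.0747). Plekha2 had 0.33 (limma, adjusted p = 0.258) with overlapping groups, and Htra4 was too dim to test.

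Probe sets annotated to both Adam1a and Mapkapk5 were kept out of the comparisons. The brightest of these 4 had signals of 47.0, 49.1 and 53.5 in KO, against 69.9, 45.2 and 75.4 in WT. Its groups overlapped through WT replicate 2 (limma, adjusted p = 0.310).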
